A study of Rattus norvegicus with 6 samples.

Results

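The collagen chain genes of primary rat vascular smooth muscle cells were compared between cells given an siRNA called siRNA_ANK and cells given a negative control. They were taken as every protein-coding row of the count files whose symbol has the form Col, a number, a and a number, which gave 42 of the 30945 genes listed. By type these were 11 fibrillar chains, 7 network-forming chains, 9 FACITs, 7 beaded filament chains, 4 transmembrane collagens, 2 multiplexins and 2 others, Col7a1 and Col26a1. The rule used symbols and not measured values, though it was chosen with earlier results of these data known.

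Collagens are extracellular proteins built from chains with glycine repeats that wind into helical trimers. Fibrillar collagens form the cables that carry load in the vessel wall. Network-forming collagens build sheets such as the basement membrane around each smooth muscle cell, and FACITs (fibril-associated collagens with interrupted helices) sit on fibril surfaces. Type VI collagen forms beaded filaments near cells, while multiplexins lie in basement membrane zones and release fragments from their ends. In arteries, smooth muscle cells are a main source of fibrillar collagen, and many chains act only when they are assembled with a partner chain.

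Total RNA was sequenced from 6 libraries, 3 labelled negative control and 3 labelled siRNA_ANK. The labels state no strain, age, siRNA dose or time. Whether the replicates are separate animals or dishes is also unstated, so p-values describe the scatter among these 6 libraries, and that scatter may be technical. The libraries held 15641259 to 17441548 counts. CPM here is the count scaled to library size and by TMM, the normalization that edgeR applies between libraries, and values in 6 libraries are given in the order replicate 1, 2 and 3 of each group. Changes were called at an adjusted p under 0.05 in edgeR's quasi-likelihood test, adjusted over 13016 genes.

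Ankh, which encodes the membrane protein ANK, needed for the release of pyrophosphate, was at 338, 351 and 367 in the control libraries against 84.9, 76.7 and 120 CPM with siRNA_ANK. All 3 siRNA_ANK values lay below the controls, a 3.76-fold lower level (edgeR adjusted p = 0.000180). The highest siRNA_ANK value was in replicate 3. Along the first principal component over all genes tested, the controls were at -30.4, -22.9 and -32.1 and the siRNA_ANK libraries at 30.3, 34.2 and 20.9.

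The cell type given in the labels was compared with marker genes. Counts of markers called stand beside a background of 19.9% higher and 20.2% lower over all 13016 genes tested. Of 10 smooth muscle markers all were tested, 9 were higher in siRNA_ANK and none was lower. Their summed level ranged from 2620 to 3643 CPM over the controls and from 5201 to 6233 CPM with siRNA_ANK. Of 10 adventitial fibroblast markers 8 were tested, 6 were higher and 1 was lower, with a summed level of 176 to 193 CPM for controls against 234 to 248 CPM with siRNA_ANK. The endothelial markers Cdh5, Tie1 and Kdr and the macrophage markers Ptprc, Adgre1, C1qa and C1qb had no count in any library, and the chondrocyte markers Matn1, Cnmd and Hapln1 had none either. The endothelial list of 8 summed to 5.81 to 7.54 CPM for controls against 18.1 to 22.0 CPM with siRNA_ANK, with 1 of 3 tested members higher (Erg), and the macrophage list of 8 to 24.8 to 28.0 CPM and 11.2 to 14.9 CPM, with its 1 tested member lower (Cd14). The 7 chondrocyte markers summed to 172 to 192 CPM for controls against 98.5 to 120 CPM with siRNA_ANK, where 1 of 3 tested was lower (Acan). Smooth muscle and fibroblast markers moved with the rises of collagen genes below, and their part in them was not tested. In bulk RNA, fewer cells of a type and less RNA per cell cannot be told apart.

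Collagen chains took up more of the siRNA_ANK libraries, mainly through the fibrillar chains. Together the 42 genes held 5.77%, 6.19% and 5.92% of all counts in the negative controls and 7.79%, 7.86% and 7.59% in siRNA_ANK. The means were 5.96% ± 0.218 and 7.75% ± 0.141 (SD, n = 3), a difference of 1.79 percentage points. The groups did not overlap, and the exact two-sided permutation test gave p = 0.1, the smallest that 3 against 3 libraries allow. The fibrillar share differed by 1.81 percentage points, with 5.33% ± 0.198 in the controls and 7.14% ± 0.111 in siRNA_ANK (exact permutation p = 0.1). The share of the network-forming chains was 0.218% ± 0.00790 and 0.270% ± 0.0172, whereas that of the multiplexins was 0.200% ± 0.00370 and 0.123% ± 0.00414 (SD, n = 3; exact permutation p = 0.1 for each). The FACIT share was 0.0521% ± 0.00329 and 0.0673% ± 0.00546, and the beaded filament share 0.156% ± 0.00592 and 0.145% ± 0.00498 (exact permutation p = 0.1 for each). Eln, which encodes elastin, held 2.22%, 2.59% and 2.11% in the controls and 6.53%, 6.43% and 6.26% in siRNA_ANK. With the counts of Eln left out of the total, the collagen share differed by 2.18 percentage points.

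**Figure D1:**
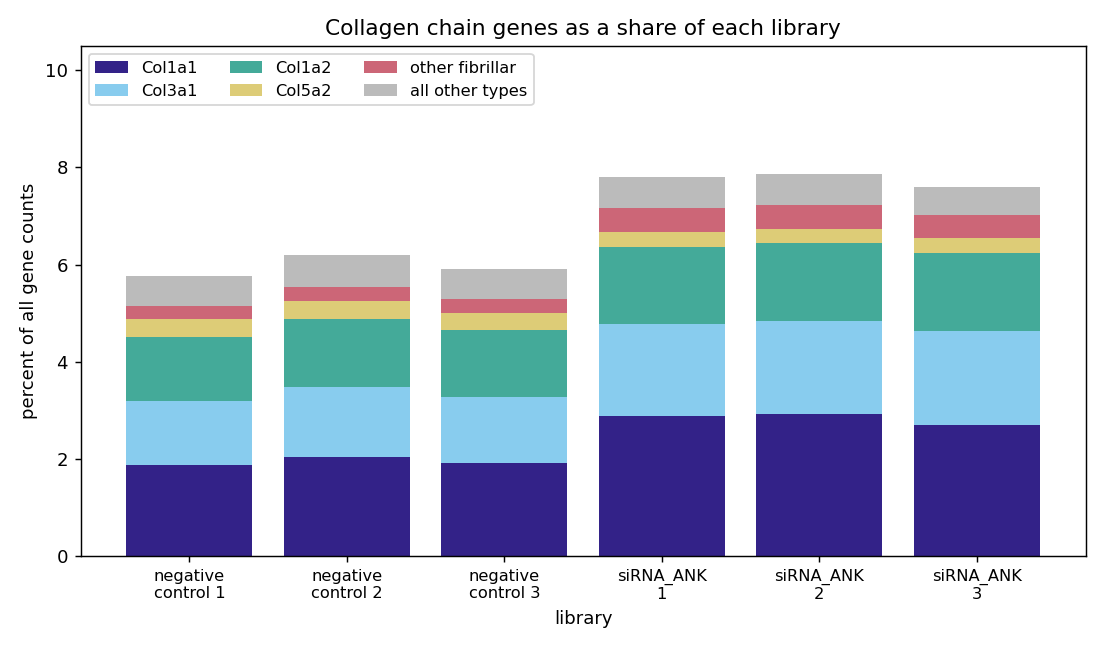
Stacked bars give the percent of all gene counts (y axis) held by Col1a1, Col3a1, Col1a2, Col5a2, the other fibrillar chains and all other collagen types in each of the 6 libraries (x axis). The 3 siRNA_ANK bars reach 7.59% to 7.86% and the 3 negative control bars 5.77% to 6.19%.

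Of the 42 genes, 28 had enough counts to be tested. In siRNA_ANK 16 were higher, 7 were lower and 5 were not called. Over all 13016 genes tested, 40.1% were called, 19.9% higher and 20.2% lower. Past 2-fold were 8 chains, where the background was 7.15%: 7 were higher, against 4.56%, and 1 was lower, against 2.58%. In 23 of the 28 no siRNA_ANK library lay within the range of the controls or the reverse, against a background of 51.1%. The median log2 fold change of the 28 was 0.33, beside 0.01 over all genes tested. Of the 28, Col4a3 alone passed the filter on low counts only through the siRNA_ANK libraries, and 27 passed through either group. Col4a3 is among the 16 that were higher and the 7 of them past 2-fold. Rises ranged from 1.20-fold to 4.90-fold (Col4a3), or to 4.81-fold without Col4a3, and falls from 1.19-fold to 2.17-fold.

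**Figure D2:**
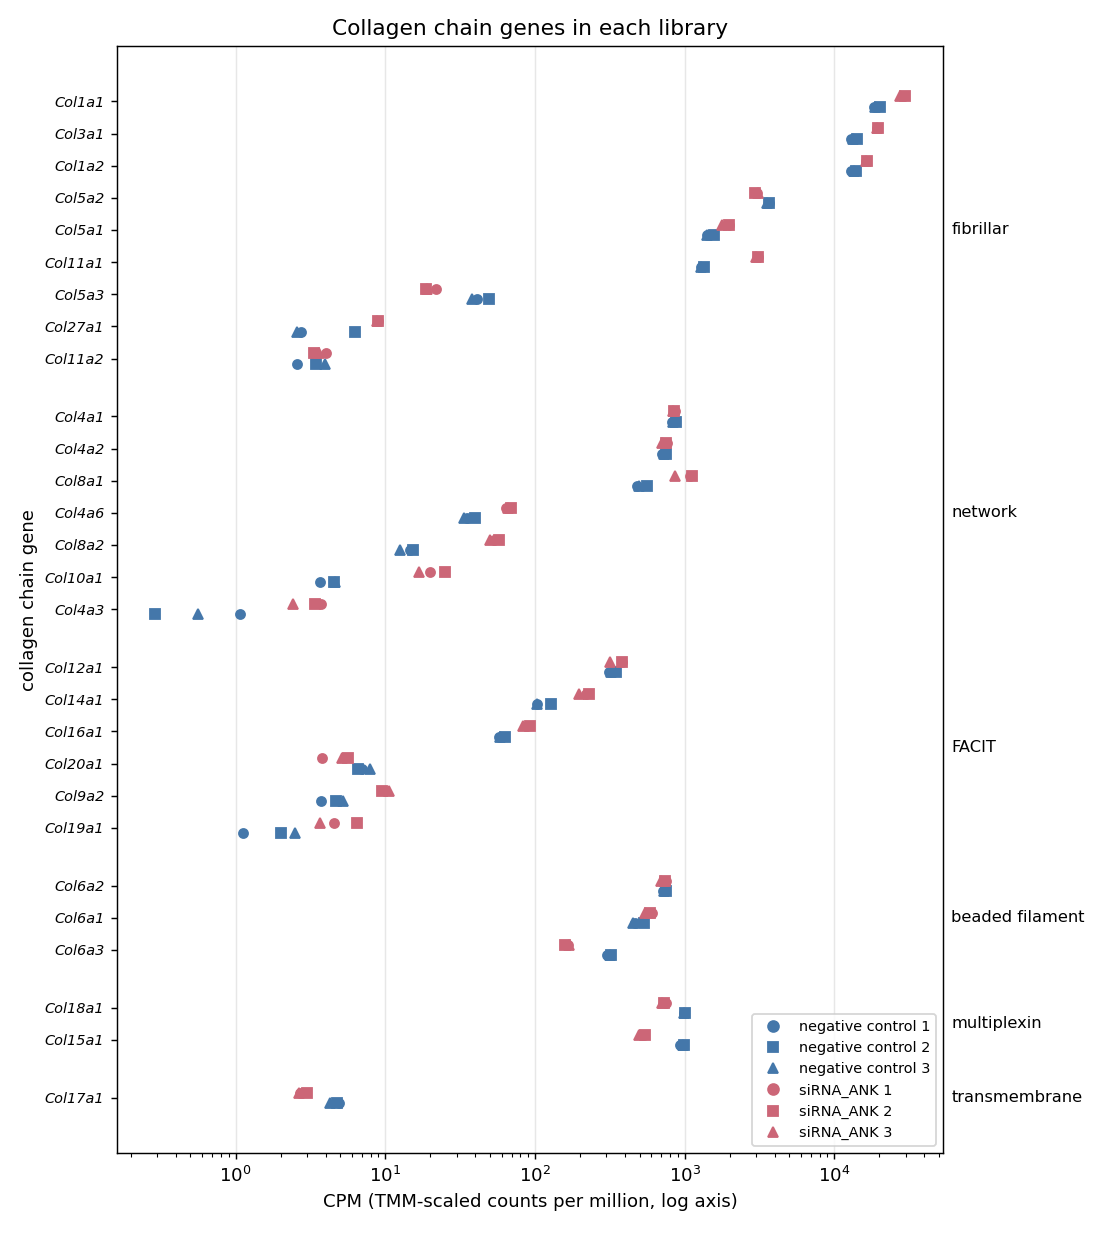
Each row is 1 of the 28 tested collagen chain genes, grouped by type, and each point is the CPM of that gene in 1 library on a log axis, blue for negative control and red for siRNA_ANK, with a marker for each replicate. The levels run from 0.288 CPM for Col4a3 in a control to 29911 CPM for Col1a1 in siRNA_ANK, and for 23 rows the colours do not overlap.

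The most abundant chains all rose. Col1a1 and Col1a2 encode the chains of type I collagen, the main fibril protein of connective tissue, and Col3a1 encodes type III collagen, which forms fibrils with it in distensible tissue such as the artery wall. Col1a1 (ENSRNOG00000003897, chromosome 10, 79883622 to 79900624 of mRatBN7.2, plus strand) was at 18292, 20108 and 18634 in the control libraries against 29410, 29911 and 27442 CPM with siRNA_ANK. Every siRNA_ANK value was above every control, 1.52-fold higher on the fitted scale (log2 fold change 0.61 ± 0.05 SE, edgeR adjusted p = 6.61e-07). Col3a1 (chromosome 9, 47374593 to 47410547, plus strand) was at 12926, 14286 and 13297 in the control libraries against 19443, 19524 and 19443 CPM with siRNA_ANK, 1.44-fold higher (adjusted p = 1.37e-06). Its siRNA_ANK libraries lay closer together than its controls. Col1a2 (chromosome 4, 32563381 to 32598867, plus strand) was at 12998, 13881 and 13469 in the control libraries against 16199, 16456 and 16373 CPM with siRNA_ANK, 1.22-fold higher (adjusted p = 0.000243). It had the smallest rise of these chains, without overlap between the groups.

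Minor fibrillar chains moved in both directions. Types V and XI are found inside the larger fibrils and take part in starting them and setting their width. Col11a1 (chromosome 2, 201820715 to 202013853, plus strand), the alpha 1 chain of type XI collagen, best known from cartilage, was at 1279, 1354 and 1282 in the control libraries against 3112, 3078 and 3018 CPM with siRNA_ANK. This was a 2.35-fold rise (log2 fold change 1.23 ± 0.05 SE, edgeR adjusted p = 3.18e-10), the smallest adjusted p among the collagen chains. Its partner Col11a2 was at 2.59, 3.45 and 3.94 in the control libraries against 4.02, 3.35 and 3.61 CPM with siRNA_ANK, overlapped between the groups and was not called (adjusted p = 0.622).

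Among the type V chains, Col5a1 rose while both of its partners fell. Col5a1 was at 1419, 1563 and 1418 in the control libraries against 1966, 1965 and 1786 CPM with siRNA_ANK (1.30-fold higher, edgeR adjusted p = 0.000142). Col5a2 went from 3638, 3642 and 3576 CPM to 3065, 2966 and 3080 CPM (1.19-fold lower, adjusted p = 0.000664), a small change with narrow groups that did not overlap. Col5a3 was at 40.8, 49.6 and 38.2 in the control libraries against 21.8, 18.6 and 18.9 CPM with siRNA_ANK. At 2.17-fold lower (log2 fold change -1.11 ± 0.10 SE, adjusted p = 1.56e-06) it was the largest fall among the tested chains. Col27a1, a fibrillar chain known from cartilage, was at 2.76, 6.28 and 2.56 in the control libraries against 8.93, 8.98 and 8.80 CPM with siRNA_ANK (2.29-fold higher, adjusted p = 0.00670). Its highest control, replicate 2, stayed below all siRNA_ANK libraries. In all, 6 of the 9 tested fibrillar chains rose, 2 fell and 1 was not called, beside 19.9% higher and 20.2% lower over all genes tested.

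Fibrillar genes that were not tested were Col2a1, the main collagen of cartilage, with 4 counts over the controls and 3 over siRNA_ANK, and Col24a1, with 1 and 31. For Col24a1 the ratio of siRNA_ANK to control was 32.2, with an exact 95% counting interval of 5.37 to 1314, and the siRNA_ANK libraries were at 0.719, 0.958 and 0.190 CPM. With no filter on low counts its adjusted p was 0.000104 (edgeR). Nearly all counts of Col24a1 were in siRNA_ANK, so these values lend no support to a rise. The counting intervals pool the 3 libraries of each group, so they cover counting error only and leave out the scatter between libraries. The reads also carry no stated molecular identifiers.

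**Figure D3:**
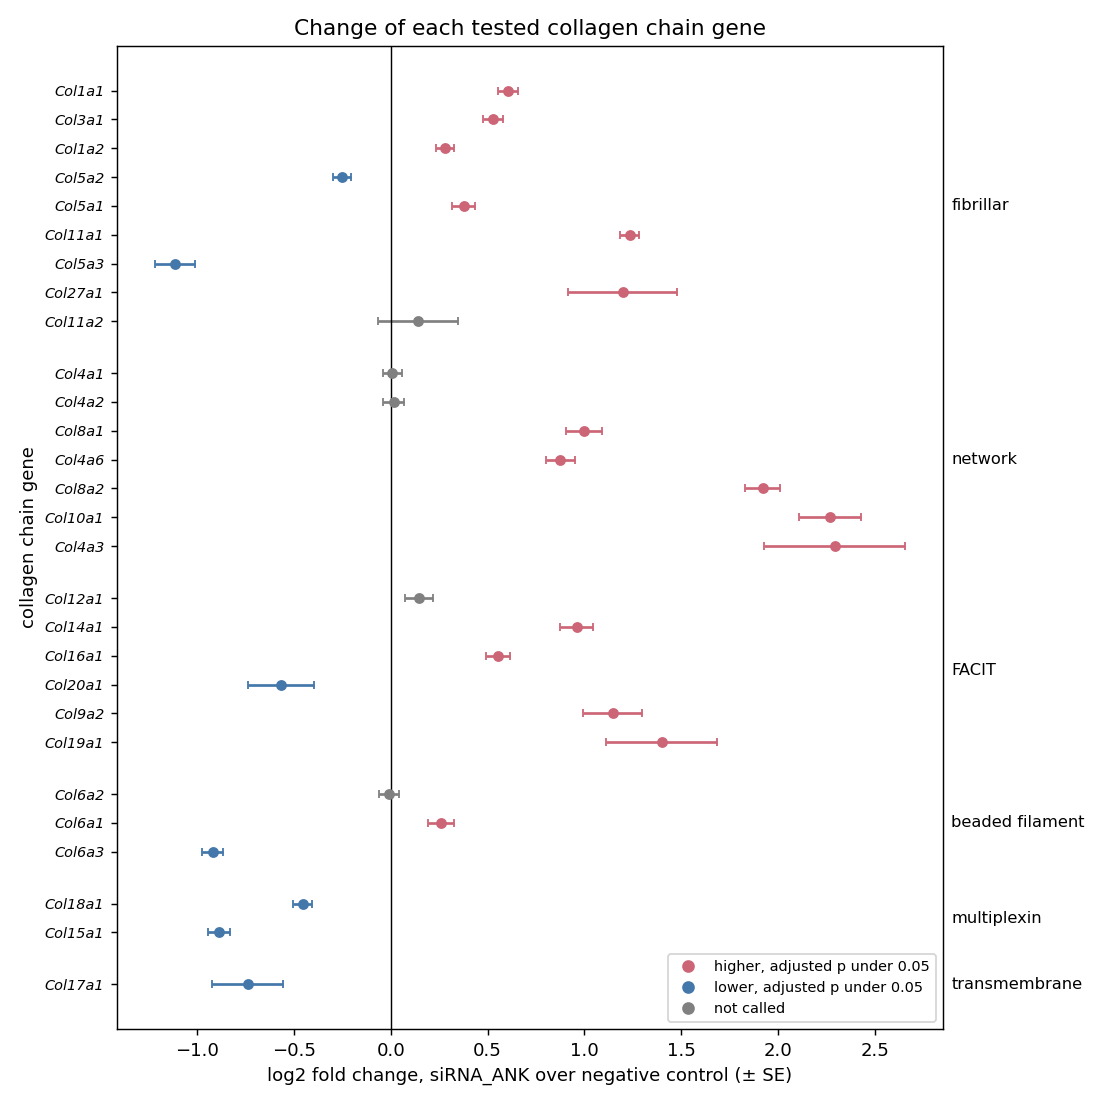
Points give the log2 fold change of siRNA_ANK over negative control for the 28 tested collagen chain genes by type, and bars the SE of the edgeR fit. The network-forming chains other than Col4a1 and Col4a2 lie between 0.88 and 2.29, and both multiplexins lie below 0.

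Within the network-forming collagens the common chains of type IV collagen were not called, and the other 5 of 7 tested chains rose. Of these 5, Col4a3 passed the filter on low counts only through the siRNA_ANK libraries. Over all genes tested 19.9% were higher. Col4a1 and Col4a2 encode the chains of the general basement membrane network. Col4a1 (chromosome 16, 78183533 to 78294412, plus strand) was at 829, 871 and 836 in the control libraries against 866, 852 and 831 CPM with siRNA_ANK, and the groups overlapped (log2 fold change 0.01 ± 0.05 SE, edgeR adjusted p = 0.912). Col4a2 (chromosome 16, 78047602 to 78183839, minus strand) was at 709, 755 and 728 CPM and 763, 748 and 705 CPM, also with overlap (log2 fold change 0.02 ± 0.05 SE, adjusted p = 0.845). These genes face away from each other and overlap by 307 bases at their starts in the annotation of the files, so a read there could belong to either without a strand setting.

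Their promoters are shown because the starts of both genes share 1 stretch of sequence and neither gene was called. The RefSeq windows, 250 bases before to 50 after the annotated start on the GRCr8 build, share 176 bases. Capitals mark CCAAT (or ATTGG on the other strand), GGGCGG (or CCGCCC) and TATAAA (or TTTATA); the motifs were searched on both strands, with overlaps counted.
Col4a1, chr16:84885347-84885646, plus strand: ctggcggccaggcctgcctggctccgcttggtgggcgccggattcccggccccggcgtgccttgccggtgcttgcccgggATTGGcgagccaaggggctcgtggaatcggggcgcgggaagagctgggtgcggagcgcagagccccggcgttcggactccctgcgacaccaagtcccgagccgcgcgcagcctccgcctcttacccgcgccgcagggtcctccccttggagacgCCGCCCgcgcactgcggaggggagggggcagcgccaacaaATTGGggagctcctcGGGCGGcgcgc
Col4a2, chr16:84885471-84885770, minus strand: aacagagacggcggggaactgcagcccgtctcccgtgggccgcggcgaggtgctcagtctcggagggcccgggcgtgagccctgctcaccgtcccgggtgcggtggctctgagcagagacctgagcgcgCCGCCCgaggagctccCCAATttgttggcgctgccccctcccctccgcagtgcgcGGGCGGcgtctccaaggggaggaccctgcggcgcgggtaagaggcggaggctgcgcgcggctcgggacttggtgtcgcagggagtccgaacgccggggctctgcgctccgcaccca
Both windows hold CCAAT and GGGCGG and neither holds TATAAA. Over all 27457 RefSeq promoters of this length, 37.7% hold CCAAT, 34.9% hold GGGCGG and 14.3% hold TATAAA.

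The chains of type VIII collagen, a short-chain collagen that smooth muscle and endothelial cells make during vessel remodelling, rose together. Col8a1 (chromosome 11, 42777628 to 42906424, plus strand) was at 485, 560 and 493 in the control libraries against 1085, 1117 and 868 CPM with siRNA_ANK. The level was 1.997-fold higher (log2 fold change 0.998 ± 0.10 SE, edgeR adjusted p = 1.78e-05), with siRNA_ANK replicate 3 lowest in its group and still above all controls. Col8a2 (chromosome 5, 138585999 to 138612850, plus strand) was at 14.6, 15.3 and 12.6 in the control libraries against 53.1, 57.8 and 50.3 CPM with siRNA_ANK, 3.78-fold higher (log2 fold change 1.92 ± 0.09 SE, adjusted p = 1.20e-09). The lowest siRNA_ANK library was at more than 3 times the highest control.

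Col10a1, whose product forms a network in the hypertrophic cartilage of growing bone, had the largest fold change among chains tested through both groups. Col10a1 (chromosome 20, 38182494 to 38189494, plus strand) was at 3.66, 4.55 and 4.62 in the control libraries against 19.8, 24.9 and 16.9 CPM with siRNA_ANK, 4.81-fold higher (log2 fold change 2.27 ± 0.16 SE, edgeR adjusted p = 1.09e-07). It lies on the opposite strand within the span of Nt5dc1, with mean levels of 16.9 CPM without and 21.9 CPM with siRNA_ANK (log2 fold change 0.37, adjusted p = 0.00528). Whether reads of one were counted for the other was not tested.

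The promoters of these rising network chains are shown next: both chains of type VIII and the chain of type X, which rose by 1.997-fold or more. The capitals mark the same motifs.
Col8a1, chr11:56246532-56246831, plus strand: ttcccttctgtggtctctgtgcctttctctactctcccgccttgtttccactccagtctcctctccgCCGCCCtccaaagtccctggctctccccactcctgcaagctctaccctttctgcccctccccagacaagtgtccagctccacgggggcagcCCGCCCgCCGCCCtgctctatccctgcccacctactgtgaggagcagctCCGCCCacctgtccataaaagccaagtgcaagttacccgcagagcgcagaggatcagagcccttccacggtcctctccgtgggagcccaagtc
Col8a2, chr5:143870519-143870818, plus strand: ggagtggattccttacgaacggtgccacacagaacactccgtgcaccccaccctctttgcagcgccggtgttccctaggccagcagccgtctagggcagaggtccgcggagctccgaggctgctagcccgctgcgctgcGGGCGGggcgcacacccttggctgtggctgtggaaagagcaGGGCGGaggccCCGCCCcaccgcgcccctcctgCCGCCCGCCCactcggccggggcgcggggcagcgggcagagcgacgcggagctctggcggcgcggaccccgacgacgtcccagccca
Col10a1, chr20:39737286-39737585, plus strand: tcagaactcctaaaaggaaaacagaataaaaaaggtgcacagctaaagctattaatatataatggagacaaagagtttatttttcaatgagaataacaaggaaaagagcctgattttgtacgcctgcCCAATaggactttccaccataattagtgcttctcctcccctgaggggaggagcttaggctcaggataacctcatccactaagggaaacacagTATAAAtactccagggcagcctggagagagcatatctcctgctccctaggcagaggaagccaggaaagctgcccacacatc
GGGCGG was found 4 times in the Col8a1 window and 5 times in that of Col8a2, and TATAAA in neither. The Col10a1 window held TATAAA 31 bases before the start and CCAAT 123 bases before it, and no GGGCGG. Promoters were matched by symbol for 33 of the 42 genes. GGGCGG was present in 8 of 13 matched chains that rose and in 3 of 7 that fell, CCAAT in 3 and 3, and TATAAA in 2 and 1.

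Type IV chains of specialised basement membranes also rose. Col4a6, whose product is found with the alpha 5 chain in smooth muscle basement membranes, was at 35.2, 40.0 and 33.7 in the control libraries against 64.5, 69.1 and 66.5 CPM with siRNA_ANK (1.84-fold higher, edgeR adjusted p = 4.85e-07). Col4a3, a chain of the kidney filtration barrier, was at 1.07, 0.288 and 0.562 CPM and 3.72, 3.41 and 2.41 CPM (log2 fold change 2.29 ± 0.36 SE, adjusted p = 0.000180). These levels were low, with 33 counts over the controls and 157 over siRNA_ANK, and dropping the first control library moved the log2 fold change to 2.90 (edgeR adjusted p = 0.000145). Col4a3 passed the filter on low counts only through the siRNA_ANK libraries, where it was high. Its test therefore lends no support to a rise. A pair of further rows are described in the files as the alpha 4 and alpha 5 chains of type IV collagen but carry an identifier in place of a symbol, so they are not among the 42. The alpha 5 row (ENSRNOG00000018951, chromosome X, 105118820 to 105322692) was at 360, 379 and 368 in the control libraries against 610, 601 and 615 CPM with siRNA_ANK, 1.65-fold higher (adjusted p = 7.87e-08). The alpha 4 row (ENSRNOG00000014851), which overlaps Col4a3 by 316 bases on the other strand, was at 0.844, 1.32 and 1.81 CPM and 4.56, 4.55 and 3.36 CPM (3.15-fold higher, adjusted p = 0.000223). Both rows, chosen after their values were seen, rose without overlap between the groups.

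FACITs mostly rose, 4 of 6 tested, while 1 fell and 1 was not called. The background over all genes tested was 19.9% higher and 20.2% lower. Col14a1, which binds the surface of type I fibrils, was at 104, 128 and 103 in the control libraries against 220, 232 and 198 CPM with siRNA_ANK (1.94-fold higher, log2 fold change 0.96 ± 0.09 SE, edgeR adjusted p = 4.79e-06). Col16a1, found near fibrils and at cell contacts, was at 57.9, 62.9 and 58.8 CPM and 88.3, 92.2 and 83.3 CPM (1.47-fold higher, adjusted p = 8.71e-06). For both genes the groups lay well apart. Col12a1, a fibril-surface collagen of tissue under tension, was at 311, 348 and 322 in the control libraries against 381, 385 and 319 CPM with siRNA_ANK and was not called (log2 fold change 0.15 ± 0.07 SE, adjusted p = 0.131). Its siRNA_ANK replicate 3 lay among the controls, and without that library the gene was called higher (log2 fold change 0.23, adjusted p = 0.000825).

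The other FACITs were at 10.6 CPM or less. Col9a2, part of the coat of cartilage fibrils, was at 3.71, 4.72 and 5.19 in the control libraries against 9.89, 9.58 and 10.6 CPM with siRNA_ANK (2.21-fold higher, edgeR adjusted p = 3.53e-05). Its partners Col9a1 and Col9a3 had 0 and 3 counts over the controls and 1 and 4 over siRNA_ANK. Col9a2 lies within the annotated span of Rims3 on the same strand, which was at 0 and 0.0599 CPM. Col19a1 was at 1.13, 2.02 and 2.50 CPM and 4.56, 6.53 and 3.67 CPM (2.64-fold higher, adjusted p = 0.00159). Col20a1 was at 7.03, 6.62 and 7.87 in the control libraries against 3.78, 5.63 and 5.13 CPM with siRNA_ANK (1.48-fold lower, adjusted p = 0.0168). Col20a1 did not pass once the third control library (edgeR adjusted p = 0.0704) or the first siRNA_ANK library (adjusted p = 0.0861) was dropped. Col20a1 also shares 15320 bases of its span with Arfgap1 on the same strand, at 1.02 and 1.16 CPM. Col22a1 had no count in any library.

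The chains of type VI collagen moved apart. Col6a1 and Col6a2 assemble with a long chain, commonly that of Col6a3, into beaded filaments. Col6a3 (chromosome 9, 91361583 to 91439471, minus strand) fell from 301, 321 and 316 CPM in the controls to 167, 160 and 169 CPM in siRNA_ANK, 1.89-fold lower (log2 fold change -0.92 ± 0.05 SE, edgeR adjusted p = 1.30e-08). Col6a1 was at 467, 535 and 451 in the control libraries against 608, 588 and 546 CPM with siRNA_ANK (1.20-fold higher, adjusted p = 0.00662). It stayed called with 1 library left out, but near the limit, with an edgeR adjusted p of up to 0.0486 (without siRNA_ANK replicate 1). Col6a2 was at 717, 752 and 732 CPM and 748, 742 and 697 CPM, with overlap (log2 fold change -0.01 ± 0.05 SE, adjusted p = 0.906). So the long chain fell without overlap while its partners rose a little or were not called. The alternative long chains were at or near 0: Col6a5 had no count, Col6a4 had 0 counts over the controls and 3 over siRNA_ANK, and Col6a6 had 2 and 26. The Col6a6 ratio was 13.5, with an exact 95% counting interval of 3.39 to 118 (edgeR adjusted p = 0.00223 with no filter on low counts). Nearly all counts of Col6a6 were in siRNA_ANK, so these values lend no support to a rise. Col6a6 lies on the opposite strand to Pik3r4, which covers 10163 bases of its span and was at 19.4 CPM in both groups. Col28a1, also a beaded filament type, had 1 and 2 counts.

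Both multiplexins fell. Col15a1 (chromosome 5, 61501963 to 61607591, plus strand) encodes type XV collagen, which links basement membranes to the fibrils beneath. It was at 931, 996 and 982 in the control libraries against 536, 544 and 494 CPM with siRNA_ANK, 1.85-fold lower (log2 fold change -0.89 ± 0.06 SE, edgeR adjusted p = 2.96e-08). Col18a1 (chromosome 20, 11474104 to 11582593, plus strand), the source of the fragment endostatin, was at 986, 1003 and 988 CPM and 747, 725 and 702 CPM, 1.37-fold lower (log2 fold change -0.45 ± 0.05 SE, adjusted p = 6.66e-06). For both genes the lowest control was far above the highest siRNA_ANK library.

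Transmembrane collagens were scarce. Col17a1, a component of the hemidesmosomes of epithelia, was at 4.89, 4.78 and 4.25 in the control libraries against 2.70, 2.99 and 2.66 CPM with siRNA_ANK (1.67-fold lower, edgeR adjusted p = 0.00523). Col23a1 had 1 count in all, and Col13a1 and Col25a1 had none. Of the remaining types, Col26a1 had no count, and Col7a1, which forms the anchoring fibrils of skin, had 51 counts over the controls and 14 over siRNA_ANK. Its ratio was 0.286, with an exact 95% counting interval of 0.146 to 0.524 (edgeR adjusted p = 0.00568 with no filter on low counts). Of the 14 genes not tested, 5 had no count in any library, 6 had 1 to 10 counts in all and 3 had more. With no filter on low counts those 6 were not called (edgeR adjusted p = 0.294 to 0.891), while the 3 with more counts were. Over all 19000 genes in that setting 2688 were called higher and 2744 lower, so the count is not read as particular to these chains.

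Levels of different genes were compared per kilobase of gene length as given in the files. Col1a1 led with 3264 ± 166 CPM per kilobase in the controls and 4965 ± 224 in siRNA_ANK (SD, n = 3). Col1a2 was next in the controls with 2869 ± 94.3 and Col3a1 with 2821 ± 147, which differ by less than their spread. In siRNA_ANK the order was Col1a1, Col3a1 with 4067 ± 9.81 and Col1a2 with 3487 ± 28.0 CPM per kilobase. These chains of types I and III made up 81.4% ± 0.235 of all collagen counts per kilobase in the controls and 84.1% ± 0.345 in siRNA_ANK (exact permutation p = 0.1). Col5a2 followed with 587 ± 5.99 and 492 ± 10.1 CPM per kilobase. Below it the order turned: Col5a1 was at 211 ± 12.0 and 274 ± 14.9 CPM per kilobase, Col8a1 at 190 ± 15.5 and 380 ± 50.3, Col15a1 at 178 ± 6.26 and 96.5 ± 5.02, and Col11a1 at 170 ± 5.55 and 400 ± 6.26. In the controls the ranges of Col15a1 and Col11a1 overlapped, whereas in siRNA_ANK Col11a1 was above Col15a1 in all libraries.

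Ratios between chains, taken within each library from counts per kilobase, do not depend on the scaling between libraries. The pairs were chains of the same trimer or fibril, except for the multiplexins Col15a1 and Col18a1. Of 17 pairs listed, 12 had both chains tested. In 10 of them the groups did not overlap, 5 higher and 5 lower in siRNA_ANK. Of single genes, 51.1% of all tested did not overlap, and the share among ratios of other genes was not computed. Some chains, such as Col1a1 and Col5a1, stand in several pairs, so the pairs are not independent. Each of these 10 had an exact two-sided permutation p = 0.1, the smallest possible, and p = 0.12 after Benjamini-Hochberg adjustment over the 12 pairs.

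The chains of type I collagen, which is built from more alpha 1 than alpha 2 chains, moved towards Col1a1. Col1a1 to Col1a2 was 1.13, 1.17 and 1.11 in the controls and 1.46, 1.46 and 1.35 in siRNA_ANK. Col5a1 to Col5a2 was 0.346, 0.381 and 0.352 in the controls and 0.569, 0.587 and 0.514 in siRNA_ANK, and Col5a3 to Col5a1 went from 0.0330 ± 0.00277 to 0.0118 ± 0.000941. In both type V ratios the groups lay apart. Col5a1 to Col1a1 was 0.0646 ± 0.000749 and 0.0552 ± 0.000739, so the type V chain rose less than the type I chain it lies with. Col11a1 to Col5a1 was 0.817, 0.785 and 0.819 in the controls and 1.44, 1.42 and 1.53 in siRNA_ANK. Col11a1 was therefore the lower of the pair in every control and the higher in every siRNA_ANK library.

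Col6a3 to Col6a1 had 1 of the largest shifts, from 0.272, 0.254 and 0.296 in the controls to 0.116, 0.115 and 0.131 in siRNA_ANK. Col6a1 to Col6a2 was 0.768 ± 0.0562 and 0.928 ± 0.0173. Col8a1 to Col8a2 fell by 0.93 on the log2 scale, from 60.5 ± 4.96 to 31.7 ± 2.69, although both chains rose. Col15a1 to Col18a1, compared as multiplexins and not as partner chains, went from 1.25 ± 0.0361 to 0.924 ± 0.0308. Col11a1 to Col11a2 went from 342 ± 71.9 to 714 ± 60.7. The pairs that overlapped were Col4a1 to Col4a2, at 1.29 ± 0.0113 and 1.29 ± 0.0266 (log2 difference -0.01, exact permutation p = 0.7), and Col3a1 to Col1a1, at 0.864 ± 0.00423 and 0.820 ± 0.0366 (exact permutation p = 0.2).

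**Figure D4:**
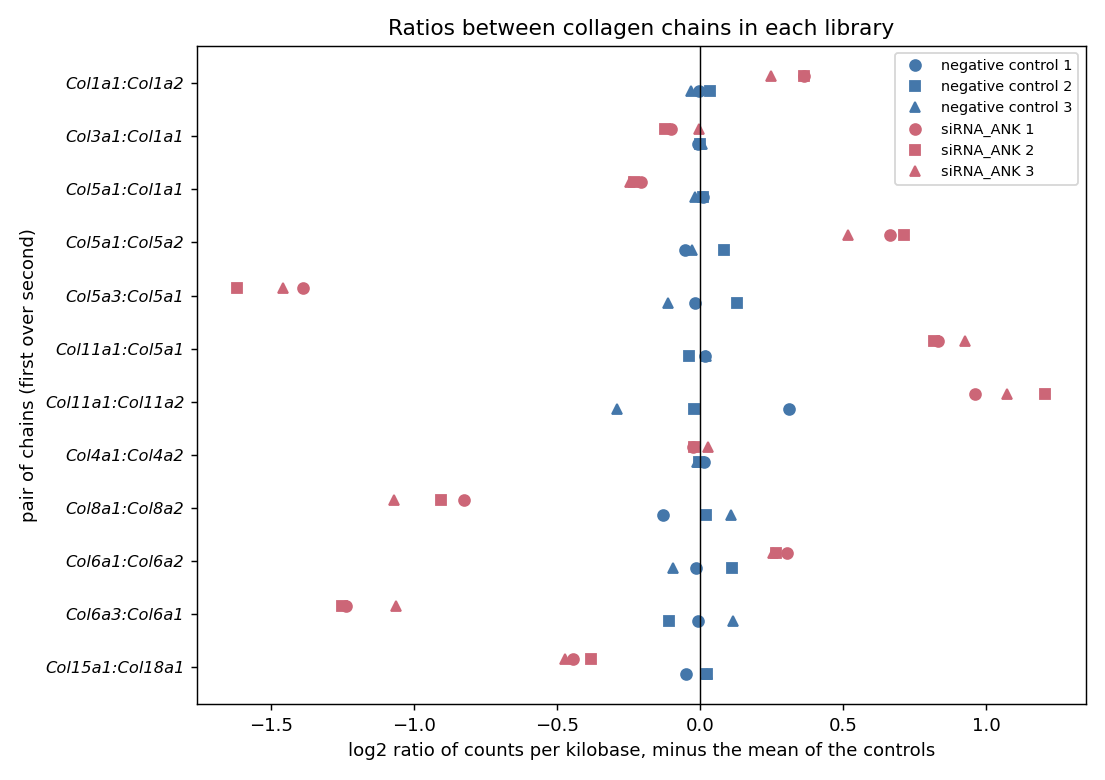
For each of 12 pairs of chains the points give the log2 ratio of counts per kilobase in each library minus the mean of the 3 controls, blue for negative control and red for siRNA_ANK. Col4a1 to Col4a2 stays near 0 in all libraries, and Col5a3 to Col5a1 is shifted by -1.49, the largest shift among the 12 pairs.

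Genes that lie near each other on a chromosome did not all move alike. Col3a1 and Col5a2 are neighbours on chromosome 9 with their ends facing, 38188 bases apart and with no gene between them, and the former rose while the latter fell. On chromosome 20, Col6a1 and Col6a2 are separated by 97169 bases on the same strand. Col18a1 lies 323363 bases before Col6a1, with 3 genes between them. The log2 fold changes of Col6a1, Col6a2 and Col18a1 were 0.26, -0.01 and -0.45. Col4a1 and Col4a2, which overlap at their starts, had log2 fold changes of 0.01 and 0.02 and were not called.

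Within siRNA_ANK, replicate 3 held the lowest value for 12 of the 16 chains that rose, and replicate 2 held the highest for 11. Among the controls, replicate 2 held the highest value for 12 of the 16. The median difference from the control mean over the 16 was 1.03, 1.07 and 0.85 (log2) in siRNA_ANK replicates 1, 2 and 3. These genes were picked for their rise and none overlapped between the groups, so the medians only describe them. For the 7 that fell it was -0.85, -0.63 and -0.80.

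Genes that modify, fold and cross-link collagen moved both ways. Of 33 such genes listed, 28 were tested, 10 were higher and 11 were lower in siRNA_ANK, with a median log2 fold change of -0.07. Over all genes tested 19.9% were higher and 20.2% lower, with a median of 0.01. Plod2, the lysyl hydroxylase that acts on the ends of fibrillar chains, was at 1017, 1113 and 1014 in the control libraries against 1829, 1942 and 1798 CPM with siRNA_ANK (log2 fold change 0.82 ± 0.06 SE, edgeR adjusted p = 5.88e-08). Lox, which starts the cross-links between fibrillar collagen or elastin molecules, went from 543, 574 and 538 CPM to 1042, 1065 and 923 CPM (adjusted p = 8.08e-08). Its relative Loxl4 fell from 48.4, 50.6 and 54.9 CPM to 19.7, 18.4 and 23.8 CPM (adjusted p = 1.04e-07). Serpinh1, chosen after its values were seen, encodes the collagen chaperone HSP47 and was at 2441, 2450 and 2388 CPM and 2355, 2349 and 2498 CPM, with overlap (log2 fold change -0.02 ± 0.05 SE, adjusted p = 0.835).

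Of 10 genes for collagen receptors and uptake, 6 were tested, 1 was higher and 1 was lower, with a median log2 fold change of -0.12. These 2 of 6 called are near the 40.1% called over all genes tested, so the count shows nothing particular to the receptors. Ddr2, a receptor tyrosine kinase for fibrillar collagen, fell from 703, 688 and 730 CPM to 576, 554 and 607 CPM (edgeR adjusted p = 0.000708). Its relative Ddr1 rose from 68.9, 66.4 and 72.2 CPM to 88.8, 96.0 and 78.6 CPM (adjusted p = 0.00170). In both genes the groups did not overlap.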

How the data were processed

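The authors deposited whole-number counts per gene, with 1 file per library. The tools named are featureCounts 1.5.0-p3 and DESeq2 and the genome build is mRatBN7.2, per the submitters' processing notes. No aligner, strand setting or read filter is given in the sources used here. How reads were assigned where genes overlap is therefore unknown. Gene lengths are per the file headers. All 30945 genes entered; 385 without a symbol held 0.306% to 0.339% of the counts.

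In R 4.3.3, edgeR 4.0.16 took the counts as deposited. Low genes were removed with filterByExpr (minimum count 10, minimum total 15), and TMM factors ranged from 0.979 to 1.02. The robust quasi-likelihood fit had group as its sole term; its two-sided p-values carry a Benjamini-Hochberg adjustment across the 13016 genes. The SE is the size of the log2 fold change over the square root of F. The biological coefficient of variation was 7.11%. No replicate pair agreed within sampling noise (chi-square per degree of freedom 2.83 to 12.3). Shares and ratios were compared by exact permutation of 3 against 3 libraries. The steps were tested on simulated counts. Promoter sequences are from RefSeq (GRCr8).

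The members and lists were chosen with earlier results of these data known. Values in every library are given for called chains and those of at least 100 CPM; from the maturation and receptor lists up to 3 called genes by smallest adjusted p are named. Protein sequence features were planned and not run here. Alternatives were DESeq2 1.42.0, DESeq2 size factors, other filters, scaling without the 20 most abundant genes, a replicate block and leaving out libraries.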

Additional observations from a re-analysis of the deposited data

How the results depend on the processing

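The 16 rises and 7 falls of collagen chains were the same genes with DESeq2, with DESeq2 size factors, with scaling without the 20 most abundant genes and with the replicate block. Over all 13016 genes these settings called 2236 to 2596 higher and 2380 to 2684 lower. With no filter beyond 1 count 18 were higher and 8 lower of 37 tested, beside 2688 and 2744 of 19000 over all genes. The added rises were Col24a1 and Col6a6, with nearly all their counts in siRNA_ANK. With a mean of at least 5 CPM 14 were higher and 6 lower of 24 tested, beside 2254 and 2291 of 10020 over all genes. Leaving out 1 library gave 16 to 18 higher and 6 to 8 lower of 29 to 30 tested. Over all genes these fits called 1991 to 2874 higher and 2062 to 2976 lower of 13162 to 13239. Dropping both the second control and the third siRNA_ANK library gave 18 and 7 of 29 tested, beside 3007 and 3049 of 13109. The direction of genes that were not called turned at sizes near 0. With 1 library left out, the log2 fold change ranged from -0.0081 to 0.029 for Col4a1, from -0.0098 to 0.046 for Col4a2, from -0.030 to 0.021 for Col6a2 and from -0.015 to 0.28 for Col11a2, and the log2 ratio of Col4a1 to Col4a2 from -0.024 to 0.0032. Col6a2 was at 0.0015 with a mean of at least 5 CPM and at 0.039 with both libraries left out. The cause was not tested.

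Of the receptor genes, 2 were lower with DESeq2 size factors (Itgb1 added), with no filter and with the replicate block (Itga1 added), and with both libraries left out (Itgb1 added); leaving out 1 library gave 1 to 2. With no filter 2 were higher (Itga10 added). The counts over all genes in these settings are given above. The collagen share differed by 1.69 to 1.91 percentage points with 1 library left out and the fibrillar share by 1.72 to 1.92. Replicate numbers are shared between the groups, but the correlation of same-numbered libraries' deviations was -0.03, 0.08 and 0.05, so the block pairs only numbers; with the replicate block 16 chains were higher and 7 lower, and the share differed by 1.79 points (exact permutation p = 0.25, the smallest possible). Genes under 1 CPM rest on few counts.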
